A study of Homo sapiens with 12 samples.

Results

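Retained intron transcripts are spliced RNAs of a gene that keep sequence which other transcripts of the same gene remove as intron. The members described here were all transcripts that GENCODE classes as retained intron within protein-coding genes. They numbered 31543 of the 244939 transcripts in each quantification file and lay in 9578 of 19965 protein-coding genes. The measured quantity was the share of a transcript, its TPM (abundance per length, scaled by RSEM to the same total in each library) as a percent of the TPM sum of its gene. Shares were described in genes whose TPM sum was at least 1 in each of the 12 libraries, which left 19532 members in 5001 of 7565 such genes. Of these members, 7900 were above 0 in all 12 libraries, 707 were at 0 in all 12, and 8775 had a mean TPM of at least 0.1 and were tested. Members of genes just outside the limit behaved as follows: in 177 genes with a lowest TPM sum of 0.9 to 1.0, the median summed share was 7.11% in T1074, 9.03% in PEO-4, with 4.67% in SKOV-3. In 152 genes just inside it, at 1.0 to 1.1, the medians were 7.61%, 10.1% and 5.39%.

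Total RNA was sequenced from 3 established human lines with 4 libraries each, all of wild-type genotype by the labels. T1074 is a line of ovarian epithelial cells immortalised with SV-40, PEO-4 is labelled an ovarian cystadenocarcinoma line, and SKOV-3 an ovarian serous cystadenocarcinoma line. Libraries were depleted of ribosomal RNA, kept strand and were read in pairs of 75 bases, so unspliced nuclear RNA was sampled along with mRNA. Each line was grown in a medium of its own (Prigrow I for T1074, RPMI 1640 for PEO-4, McCoy's 5A for SKOV-3), so that line and medium cannot be told apart, and each line stands for 1 donor. The labels do not say whether the 4 libraries of a line came from separate cultures, and p-values then measure only the spread between these libraries.

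Introns are removed by the spliceosome, in which the U1 snRNP recognises the donor site at the 5′ end of the intron and U2AF with the U2 snRNP the acceptor site and branch point. An intron that stays in a polyadenylated RNA usually holds that RNA in the nucleus, where it can be spliced later or degraded by the nuclear exosome, or, once exported, exposes it to nonsense-mediated decay. Genes for splicing factors themselves are well known for such detained introns, which lower the output of the gene. Retained introns tend to be short, rich in G and C and flanked by weak splice sites.

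The annotated structure of the members followed that pattern only in part. Of the 19532 members, 4632 held 1 whole intron of another transcript and 2310 held 2 or more, whereas 12590 held none, and in 12364 of these the transcript started or ended inside an intron. Over the members, the median number of exon bases was 837. The median number of bases outside the exons of protein-coding transcripts of the gene, taken separately, was 317, and 199 members had no such base of their own. An intron counted as retained if it lay inside 1 exon of a member, and of overlapping introns there only the shortest was counted. The 6822 distinct introns retained whole by this rule had a median length of 262 bases and a median GC content of 53.0%. The 86553 other introns of the same genes, which include longer alternatives of retained ones, had 1858 bases and 43.2%. Both parts of the rule favour short introns, and their part in the length gap was not tested. Splice sites were scored as summed log2 odds against the base frequencies of these other introns. Donor sites had a median of 7.55 in retained and 8.12 in other introns, and acceptor sites 8.15 and 9.56. Introns that opened with ATATCC or GTATCC, the start of many introns of the minor spliceosome, made up 0.968% of retained and 0.474% of other introns. These figures come from the annotation alone and carry no test.

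The ends of 7 introns are printed from transcripts that were named for a difference between lines and hold a whole intron. Those of TBL3 are printed because its transcript was at a high level in every line. The largest differences in share fell on transcripts with no whole intron, such as those of INCENP and MGST3. The sequences are from GRCh38 (hg38), 5′ to 3′ on the strand of the gene, as 10 exon and 20 intron bases at the donor and 20 intron and 10 exon bases at the acceptor, with the GT and AG that border the intron in capitals. The TMEM94 introns shown are chr17:75495644-75495965 (322 bases) and chr17:75496075-75496281 (207 bases), on the plus strand. The HES4 intron is chr1:999614-999691 (78 bases, minus strand), the MIEN1 intron chr17:39730292-39730406 (115 bases, minus strand), and the SHFL intron chr19:10091354-10091475 (122 bases, plus strand). The 2 ADAMTS1 introns are chr21:26838615-26839586 (972 bases) and chr21:26840062-26840275 (214 bases), on the minus strand. The TBL3 intron is chr16:1974108-1974196 (89 bases, plus strand). The TMEM94, MIEN1, SHFL, HES4 and TBL3 introns held 61.5% to 77.9% G and C, and those of ADAMTS1 34.5% and 35%.
TMEM94 intron of 322 bases donor: accccagagaGTgagtgctgtggccatggg
TMEM94 intron of 322 bases acceptor: cccttatacgctgtcctcAGccatgtgtga
TMEM94 intron of 207 bases donor: gcgacatcagGTcagggcgggaccctggag
TMEM94 intron of 207 bases acceptor: gtgtcccccaccctgagcAGcattgccctg
HES4 intron of 78 bases donor: cagaaaagagGTaagtcgggggcgaaggcc
HES4 intron of 78 bases acceptor: ccgcctatccccgcccccAGagctcccgcc
MIEN1 intron of 115 bases donor: tggagtactgGTgagcggccccggctggag
MIEN1 intron of 115 bases acceptor: cccatctcttgactccccAGtgaaccctgc
SHFL intron of 122 bases donor: acaacttccgGTgagggcgctgacccccag
SHFL intron of 122 bases acceptor: acagccctgcccgcccccAGgggctgggca
ADAMTS1 intron of 972 bases donor: gcagcccaagGTagttcgtttttaccttat
ADAMTS1 intron of 972 bases acceptor: gacatgtgtccttttttcAGgttgtagatg
ADAMTS1 intron of 214 bases donor: gcattttgatGTgagtttttctactgaaac
ADAMTS1 intron of 214 bases acceptor: tgatttatgtctccatttAGacgccttttc
TBL3 intron of 89 bases donor: aaaagcacagGTaccagcctggggaagggc
TBL3 intron of 89 bases acceptor: tgagacctctctgtccccAGctggaccaga

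The libraries held 19780836 to 38583368 expected counts in T1074, 38690954 to 47148161 in PEO-4, with 47340136 to 55739060 in SKOV-3, and the part of depth in the differences below was not tested. MALAT1, an RNA that stays in the nucleus, stood at 0.0432% to 0.0711% of the TPM of the tested genes in T1074, 0.172% to 0.206% in PEO-4, with 0.151% to 0.164% in SKOV-3, and the part of nuclear RNA in the differences below was not tested. The tested genes summed to 130601 to 236013 TPM in T1074, 107178 to 140921 in PEO-4, with 135058 to 171932 in SKOV-3. Limits and pseudocounts set in TPM thus weigh unequally between libraries, and the part of this was not tested. KRT8, an epithelial keratin, was at 66.6 to 288 TPM in all 12 libraries. EPCAM was at 0.02 to 0.10 TPM for T1074, 27.6 to 38.0 for PEO-4 and 4.94 to 8.03 for SKOV-3, and the Müllerian factor PAX8 at 0 to 0.04, 10.6 to 16.9 and 11.1 to 17.7 TPM. Mesenchymal VIM was at 130 to 226 TPM for T1074 and 183 to 463 for SKOV-3, and at or below 0.05 in PEO-4, where ZEB1 and FN1 were also lower than in every library of the other lines. Immune and endothelial markers were at or below 0.21 TPM except CD68, which reached 4.58 TPM in T1074. PEO-4 replicate 3 had a higher retained intron share than the other PEO-4 libraries, and library means, counts of calls and list counts that change without it are given both ways.

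Retained intron transcripts took up the largest share of their genes in PEO-4 and the smallest in SKOV-3. The median over 5001 genes of the summed share was 4.86%, 3.91%, 4.56% and 5.03% in the T1074 libraries, 6.31%, 6.25%, 6.98% and 6.17% in PEO-4, with 3.24%, 3.14%, 2.98% and 3.37% in SKOV-3. The 3 lines did not overlap. The means were 4.59% ± 0.494 (SD, n = 4), 6.43% ± 0.372 (SD, n = 4) and 3.18% ± 0.162 (SD, n = 4), which put PEO-4 1.84 percentage points above T1074 and 3.24 above SKOV-3, and SKOV-3 1.41 points below T1074. Each difference had an exact two-sided permutation p of 0.0286, the smallest that 4 libraries against 4 allow, and 0.0343 after adjustment over 6 tests. Without PEO-4 replicate 3, PEO-4 stood 1.65 points above T1074 and 3.06 above SKOV-3. In bulk RNA, a share kept by fewer cells and a lower share in each cell cannot be told apart.

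In TPM over all tested genes, the total held by these transcripts showed a smaller gap. Of the TPM of the 7565 genes, 5.08% ± 0.215 (SD, n = 4) lay in retained intron transcripts in T1074, 6.11% ± 0.236 (SD, n = 4) in PEO-4, with 4.63% ± 0.196 (SD, n = 4) in SKOV-3. The PEO-4 libraries, at 5.94% to 6.45%, lay above all others. The difference was 1.04 points from T1074 and 1.48 points from SKOV-3, each with an exact permutation p of 0.0286 and an adjusted p of 0.0343. Without PEO-4 replicate 3 these differences were 0.922 and 1.37 points. SKOV-3 and T1074 overlapped, at 4.45% to 4.89% against 4.78% to 5.29%, and their difference of -0.448 points had an exact permutation p of 0.0571, so it was not distinguished from the spread. Among genes with a TPM sum of at least 10 in every library that difference was 0.0505 points in the opposite direction.

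**Figure D1:**
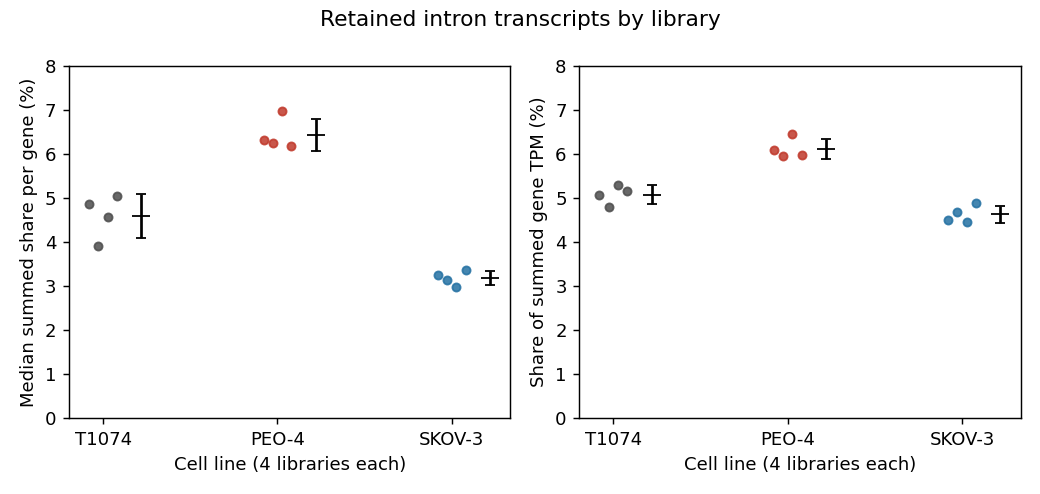
Retained intron transcripts in each of the 12 libraries, with the median summed share over 5001 genes and the percent of protein-coding TPM on the y axes (both in %), lines on the x axis, a point per library and a bar at the mean with its SD. The median share separates the 3 lines, while T1074 (4.78% to 5.29%) and SKOV-3 (4.45% to 4.89%) overlap in the percent of TPM.

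Other transcript types without a full reading frame followed this order in part. Transcripts classed as targets of nonsense-mediated decay (11821 in the same genes), which carry a premature stop codon, held 3.39% to 3.90% of TPM in T1074, 3.44% to 3.61% in PEO-4, with 3.87% to 4.07% in SKOV-3. Transcripts with no coding sequence defined (13178) held 3.08% to 3.48%, 2.94% to 3.03% and 3.29% to 3.37%. By percent of TPM, PEO-4 was thus lowest, or overlapped the lowest, in those types. By median gene share the order differed: transcripts with no coding sequence defined had 2.60% to 2.78% in PEO-4, above T1074 at 1.98% to 2.36% and SKOV-3 at 1.76% to 1.96%, in the order of the retained intron transcripts and without overlap. Nonsense-mediated decay transcripts overlapped between all lines in median gene share, at 3.98% to 4.91% for T1074, 4.14% to 4.68% for PEO-4 and 3.96% to 4.16% for SKOV-3. The ratio of retained intron TPM to nonsense-mediated decay TPM was 1.31 to 1.52 in T1074, 1.72 to 1.79 in PEO-4, with 1.11 to 1.20 in SKOV-3. The ratio to transcripts with no coding sequence defined was 1.49 to 1.68, 1.99 to 2.13 and 1.32 to 1.45. In each ratio, which rests on the percent of TPM, the 3 lines did not overlap, and all 6 differences had an exact permutation p of 0.0286, also after adjustment. The ratios were added after the values had been seen.

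Each transcript was then tested with limma on the log2 ratio of its TPM to the TPM of the rest of its gene, with adjustment over 43246 transcripts of all types. In PEO-4 against T1074, 2707 of 8775 members were higher and 254 lower, 30.8% and 2.89%, where 19.5% and 8.88% of all transcripts tested were higher and lower. In PEO-4 against SKOV-3, 3400 members were higher and 250 lower, 38.7% and 2.85%, beside 20.2% and 10.0% of all transcripts. In SKOV-3 against T1074 the direction turned, with 626 members higher and 1248 lower, 7.13% and 14.2%, beside 11% and 10.8% of all transcripts. Without PEO-4 replicate 3, 2291 members were higher and 254 lower in PEO-4 than in T1074, and 2955 and 204 than in SKOV-3. The shares of all transcripts called were not counted without this library, so these counts show only how far the member counts moved. The median log2 ratio difference of the members was 0.55, 0.69 and -0.13 in these comparisons, and 0.22, 0.15 and 0.04 over all transcripts tested.

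Part of these counts depended on the scale, and the cause was not tested. On the arcsine of the square root of the share, which has no pseudocount, 1440 members were higher and 244 lower in PEO-4 than in T1074, beside 11.1% and 9.0% of all transcripts. The corresponding counts were 2889 and 196 in PEO-4 against SKOV-3 (all transcripts 16.4% and 10.1%) and 247 and 1077 in SKOV-3 against T1074 (all transcripts 7.38% and 9.75%). The leaning of the members, up in PEO-4 and down in SKOV-3, was the same on either scale, while the number called higher in PEO-4 than in T1074 fell to 16.4% of the members tested. Without a filter on transcript TPM the leaning in SKOV-3 against T1074 turned, as given under the dependence on processing. On the arcsine scale 331 of 4514 nonsense-mediated decay transcripts were higher and 341 lower in PEO-4 than in T1074, and 2509 of 25288 protein-coding transcripts were higher and 3015 lower. Transcripts with no coding sequence defined leaned to PEO-4 as well, with 531 of 4628 higher and 293 lower than in T1074, and 742 higher and 351 lower than in SKOV-3.

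**Figure D2:**
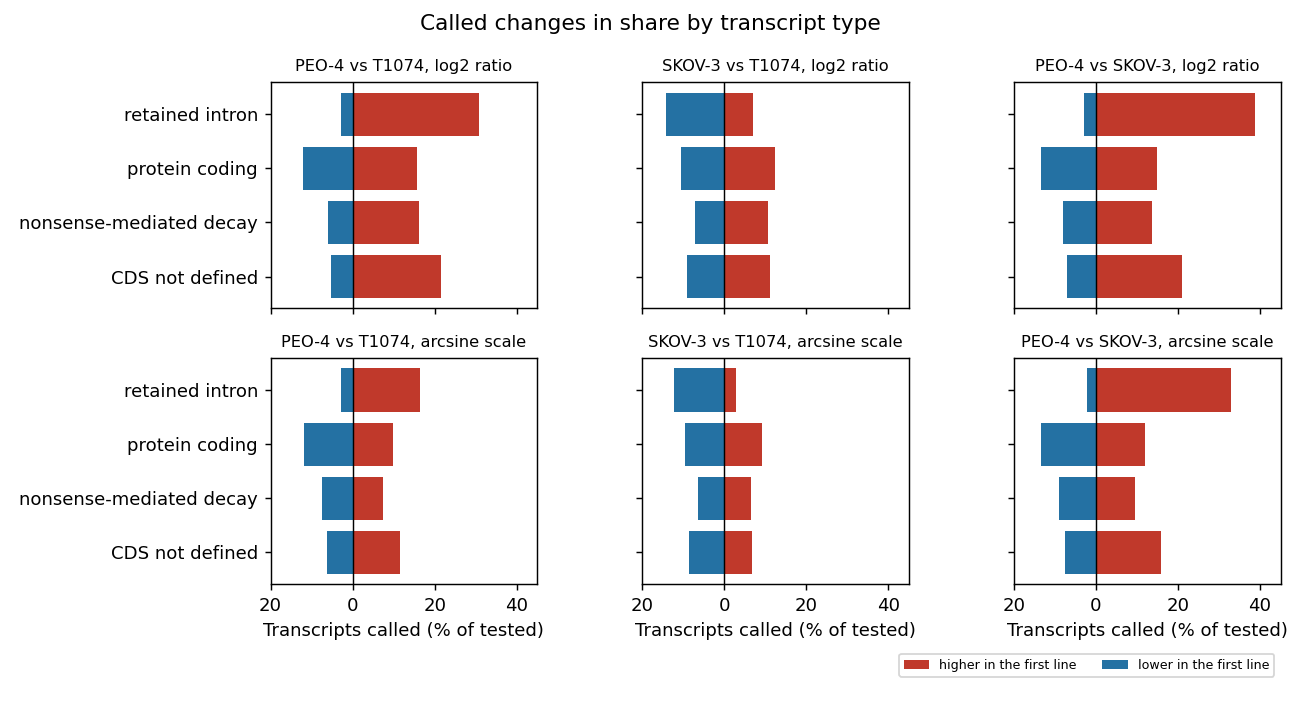
Percent of tested transcripts of each type called higher or lower in the 3 comparisons (limma, adjusted p under 0.05), on the log2 ratio (top) and on the arcsine scale (bottom); bars start at 0 and run right for higher and left for lower in the line named first. Retained intron transcripts lean to PEO-4 in both comparisons that hold it, with 38.7% higher and 2.85% lower against SKOV-3 on the log2 ratio scale.

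A count without a model or a scale gave the same leaning. All 4 PEO-4 libraries lay above the other 8 in share for 1403 of the 8775 members (16%; 8.18% of all transcripts tested) and below them for 70 (0.798%; all transcripts 4.45%). All 4 SKOV-3 libraries lay below the other 8 for 1335 members (15.2%; all transcripts 7.39%) and above for 113 (1.29%; all transcripts 4.32%). T1074 stood apart least often, above for 171 members (1.95%; all transcripts 3.81%) and below for 157 (1.79%; all transcripts 2.98%). Detection was counted for members only and not for all transcripts. The limit on gene TPM in all 12 libraries and the unequal depth bear on these counts. Above 0 in all 4 libraries of a line were 10274 members in T1074, 11817 in PEO-4, with 10457 in SKOV-3. In the same order, 6, 7 and 3 members were above 0 in every library of a line and at 0 in the other 8.

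Summed over the members of a gene, 4107 genes could be tested. In PEO-4 against SKOV-3, 52.9% of them had a higher share (2172 genes) and 2.65% a lower share (109 genes). In PEO-4 against T1074, 37.3% were higher (1531 genes) and 3.51% lower (144 genes), and in SKOV-3 against T1074, 6.6% were higher (271 genes) and 20.8% lower (855 genes). On the arcsine scale the counts were 1991 and 92, 1065 and 131, and 144 and 798. Without PEO-4 replicate 3 the genes called higher in PEO-4 numbered 1331 against T1074 and 1950 against SKOV-3. The counts higher in SKOV-3 than in T1074 rested in part on 2 libraries: without SKOV-3 replicate 1 or without SKOV-3 replicate 2, 180 genes were called, and 414 or 410 transcripts in place of 626. In 2368 of 5001 genes the means ranked PEO-4 above T1074 above SKOV-3. The other orders, and the orders for other transcript types, were not counted. The 5001 genes include 690 with a mean summed share under 1%.

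Genes whose share differed were more often changed in expression the opposite way than the tested genes as a whole. Of the 1065 genes with a higher share in PEO-4 than in T1074 on the arcsine scale, 52.1% had lower and 22.1% higher expression by edgeR, beside 45.1% and 29.8% of the 4107 genes. Of the 798 genes with a lower share in SKOV-3 than in T1074, 48.4% had higher and 24.3% lower expression, beside 37.6% and 33.0%. Of the 1991 genes with a higher share in PEO-4 than in SKOV-3, 47.8% had lower and 25.6% higher expression, beside 43.8% and 30.1%. Expression and share come from the same libraries, and no test of these proportions was made. The TPM sum of the gene also divides the share, so a change in its other transcripts moves the share the opposite way. The part of this was not tested. Over the 4107 genes, the Spearman correlation of the differences in expression and share was -0.378, -0.400 and -0.388 on the limma scale. With 0.5 percentage points added to the share it was -0.116, -0.117 and -0.122, in the order of comparisons above.

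The direction held across structural classes of member. The values in this paragraph are medians of the log2 ratio with 0.5 percentage points added to the share, a scale that does not depend on the level of the gene. Between PEO-4 and SKOV-3 the median difference was 0.64 over 5339 members with no whole intron, 0.75 over 2389 with 1 and 0.79 over 1047 with 2 or more. By retained length it was 0.61 up to 150 bases (898 members), 0.76 above 150 and up to 500 (1316 members) and 0.86 above 500 (1222 members). Between PEO-4 and T1074 the classes by whole introns gave 0.33, 0.25 and 0.31, with no gradient, and the length classes 0.13, 0.25 and 0.39. In that comparison classes of GC content up to 45%, 45% to 55% and above 55% gave 0.37, 0.31 and 0.20, while they gave 0.79, 0.77 and 0.76 between PEO-4 and SKOV-3 and -0.32, -0.39 and -0.46 between SKOV-3 and T1074. The span was wider across levels of the member: between PEO-4 and SKOV-3 the median was 0.79 over 6668 members with a mean share under 5%, 0.46 over 1767 at 5% to 20% and -0.09 over 340 at 20% or more. In those 340 members SKOV-3 stood 0.17 above T1074. The classes were not compared by a test.

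**Figure D3:**
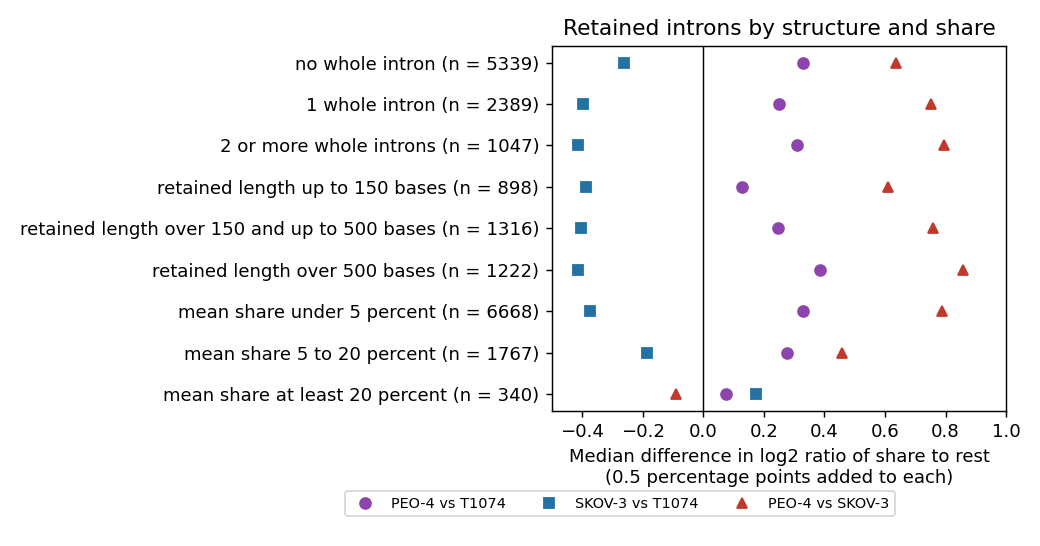
Median difference in log2 ratio (share with 0.5 percentage points added) over the tested members of each class, on the x axis, with classes by whole introns held, retained length and mean share on the y axis; each marker is the median over a class in 1 of the 3 comparisons and 0 means no difference. The classes of mean share have the widest span, from 0.79 to -0.09 between PEO-4 and SKOV-3.

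The transcripts named next were picked for the largest differences in share, so that their differences describe and do not add support. The rule took up to 5 per direction and comparison, among those past the limma test with no overlap between lines and adequate depth. It gave 21 transcripts, of which 13 held no whole intron and 7 did; the structure of the remaining one, in HLA-B, was not given because its length differs between the deposited files and the annotation used here. All 30 named differences also passed on the arcsine scale. In 719 refits under other settings, 8 lost the call and 0 turned direction. The arcsine scale and the refits use the libraries by which the transcripts were picked, so these counts add no support either.

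TMEM94 encodes a membrane protein of the endoplasmic reticulum, and its member was high in PEO-4 alone. ENST00000579898.5 (chr17:75495542-75500082, plus strand), which keeps the introns shown above and overlaps the gene of the microRNA MIR6785, made up 2.92%, 1.00%, 1.05% and 2.47% of its gene in T1074, 29.9%, 29.8%, 27.5% and 29.3% in PEO-4, with 0.781%, 0.633%, 0.261% and 1.77% in SKOV-3. PEO-4 was about level among its 4 libraries and far from the rest, with a log2 ratio difference of 3.25 (SE 0.28, limma adjusted p = 8.7e-06) from T1074 and 3.41 (SE 0.28, adjusted p = 5.39e-06) from SKOV-3. As a share of expected counts, which weights by length, the transcript was 62.4% of the gene in PEO-4, 1.87% in T1074 and 0.952% in SKOV-3. The gene as a whole was at 8.82 TPM in PEO-4, 3.88 in T1074 and 3.09 in SKOV-3.

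HES4 encodes a transcriptional repressor of the HES family, which acts downstream of Notch. Its member ENST00000481869.1 (chr1:998966-1000096, minus strand) keeps introns of 78 bases, and its share was 16.9%, 27.5%, 20.3% and 27.1% in T1074, 61.9%, 50.3%, 53.8% and 61.9% in PEO-4, with 12.5%, 10.9%, 9.48% and 14.2% in SKOV-3. The gene was at 24 TPM in T1074, 4.30 in PEO-4, with 2.00 in SKOV-3, so PEO-4 held the highest share at a lower gene level than T1074. The log2 ratio difference was 2.14 (SE 0.24, adjusted p = 5.7e-05) from T1074 and 2.84 (SE 0.24, adjusted p = 6.24e-06) from SKOV-3. By edgeR's diffSpliceDGE on expected counts the difference from T1074 did not pass (adjusted p = 0.131).

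DNAJB12, a co-chaperone of Hsp70 in the endoplasmic reticulum membrane, and GATD3 followed the same order of lines. DNAJB12 ENST00000473051.1 (chr10:72335557-72336865, minus strand), which holds no whole intron, was at 6.28%, 3.37%, 3.82% and 2.97% in T1074, 31.2%, 21.1%, 27.2% and 33.6% in PEO-4, with 1.37%, 1.5%, 0.846% and 1.1% in SKOV-3. Its difference between PEO-4 and SKOV-3 was 3.88 (SE 0.26, limma adjusted p = 1.33e-06). GATD3 ENST00000495007.5, with 1 intron of 263 bases, was at 6.16% to 10.8% in T1074, 20.7% to 32.7% in PEO-4, with 2.73% to 5.01% in SKOV-3, but a near-identical gene copy makes its counts uncertain. PPP1R16A, a regulatory subunit of protein phosphatase 1, was at 37.2% to 43.0% in PEO-4, 8.26% to 17.8% in T1074, with 0% to 12.6% in SKOV-3, and its difference from T1074 (1.93, adjusted p = 0.0146) was lost under 3 other settings. As a mean share of expected counts DNAJB12 was at 6.21% in PEO-4 and 0.758% in T1074, and PPP1R16A at 16.3% and 4.17%. PCMTD1 was higher in both tumour lines, at 35.6% to 48.1% in PEO-4, with 31.3% to 40.1% in SKOV-3, than in T1074 at 8.57% to 18.6%, and its mean share of expected counts was 14.7%, 11.2% and 3.41%.

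Among members lower in PEO-4 than in T1074, ADAMTS1 encodes a secreted protease of the extracellular matrix. Its member ENST00000679316.1 (chr21:26836310-26845409, minus strand) keeps the 2 introns shown above and had a share of 21.1%, 24.2%, 16.2% and 19.3% in T1074, 1.04%, 0.665%, 2.34% and 1.01% in PEO-4, with 10.4%, 4.79%, 5.77% and 0% in SKOV-3. The T1074 libraries lay above all others (PEO-4 against T1074 -3.65, SE 0.34, limma adjusted p = 1.79e-05), while gene TPM was highest in PEO-4 at 10.7, against 4.37 in T1074. The other 4 members lower in PEO-4 held no whole intron. ENY2, a subunit of a transcription and mRNA export complex, was at 12.8% to 16.6% in PEO-4 and 28.1% to 37.3% in T1074. SIGIRR, an inhibitory receptor of the interleukin-1 family, was at 12.3% to 32.8% in PEO-4, 37.3% to 58.0% in T1074, with 65.7% to 73.6% in SKOV-3, but only 27 of its bases lie outside coding transcripts of the gene. BNIP2 was at 13.7% to 19.2% in PEO-4 and 30.7% to 36.6% in T1074, and by diffSpliceDGE this difference did not pass (adjusted p = 0.902). PTGR1, a reductase of prostaglandins and leukotrienes, was at 22.2% to 33.3% in T1074 and at or below 7.59% in every library of the other lines.

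MIEN1, which lies beside ERBB2 and encodes a protein linked to cell migration, had the largest log2 ratio difference of the named members. The share of ENST00000469568.5 (chr17:39729156-39730491, minus strand), which keeps the intron of 115 bases shown above, was 33.3%, 24.4%, 33.3% and 23.4% in T1074, 21.2%, 20.9%, 18.4% and 31.1% in PEO-4, with 0.0206%, 0.0172%, 0.0421% and 0.0443% in SKOV-3. T1074 and PEO-4 overlapped and SKOV-3 was lower in each library. The gene was at 280 TPM in SKOV-3, 15.1 in T1074 and 6.31 in PEO-4, and the retained intron transcript itself at 0.085, 4.25 and 1.41 TPM, so the rest of the gene was at its highest in SKOV-3 and this transcript at its lowest. The difference was -9.24 (SE 0.30, limma adjusted p = 6.63e-09) between SKOV-3 and T1074 and 8.85 (SE 0.30, adjusted p = 8.37e-09) between PEO-4 and SKOV-3.

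SHFL, an interferon-induced inhibitor of ribosomal frameshifting, showed a like order at a smaller size. Its member ENST00000585919.5 was at 21.6%, 27.3%, 38.0% and 27.7% in T1074, 30.7%, 26.8%, 38.2% and 28.3% in PEO-4, with 5.79%, 5.64%, 11.9% and 5.42% in SKOV-3 (SKOV-3 against T1074 -1.95, SE 0.26, limma adjusted p = 0.000406). RSRP1, an arginine- and serine-rich protein, kept an intron of 1516 bases at 11.6% to 26.3% in T1074, 1.42% to 11.1% in PEO-4, with 0% to 0.954% in SKOV-3. KLF4, a transcription factor of epithelial differentiation, was at 20.6% to 42.4% in T1074, with 4.04% to 10.4% in SKOV-3, with PEO-4 spread from 9.18% to 33.1%.

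The members named as higher in SKOV-3 than in T1074 (of INCENP, MGST3, UCHL1, MYL6B and SIPA1) held no whole intron. They had 8 to 119 bases outside coding transcripts, where PPP1R16A had 40 and HES4 78. For MYL6B these were 111 of 322 bases and for SIPA1 119 of 548. INCENP, a scaffold of the chromosomal passenger complex in mitosis, had ENST00000528037.1 at 0% to 6.80% in T1074, 12.4% to 33.0% in PEO-4, with 78.4% to 79.6% in SKOV-3, with 93 bases outside coding transcripts. MGST3, a microsomal glutathione transferase, was at 1.53% to 3.83%, 0% to 2.78% and 48.3% to 61.6%, with 86 such bases. UCHL1, a ubiquitin hydrolase, was at 0% to 0.331%, 11.1% to 36.0% and 46.8% to 56.6%, with 8 such bases, and its gene fell from 76.0 TPM in T1074 to 7.84 in SKOV-3. None of these 3 holds a whole intron, and whether their reads cover intron sequence cannot be read from the deposited values. MYL6B and SIPA1 were also higher in SKOV-3, at 26.6% to 41.5% and 31.1% to 38.4%, than in T1074, at 0% to 3.17% and 0.621% to 11.9%, but their mean shares of expected counts in SKOV-3 were 7.03% and 8.35%. HLA-B, a class I antigen-presenting molecule, had ENST00000481849.5 at 16.3% to 19.4% in T1074, 1.01% to 1.89% in PEO-4, with 31.5% to 38.1% in SKOV-3, and since it belongs to a family of near-identical and polymorphic genes its split is uncertain.

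**Figure D4:**
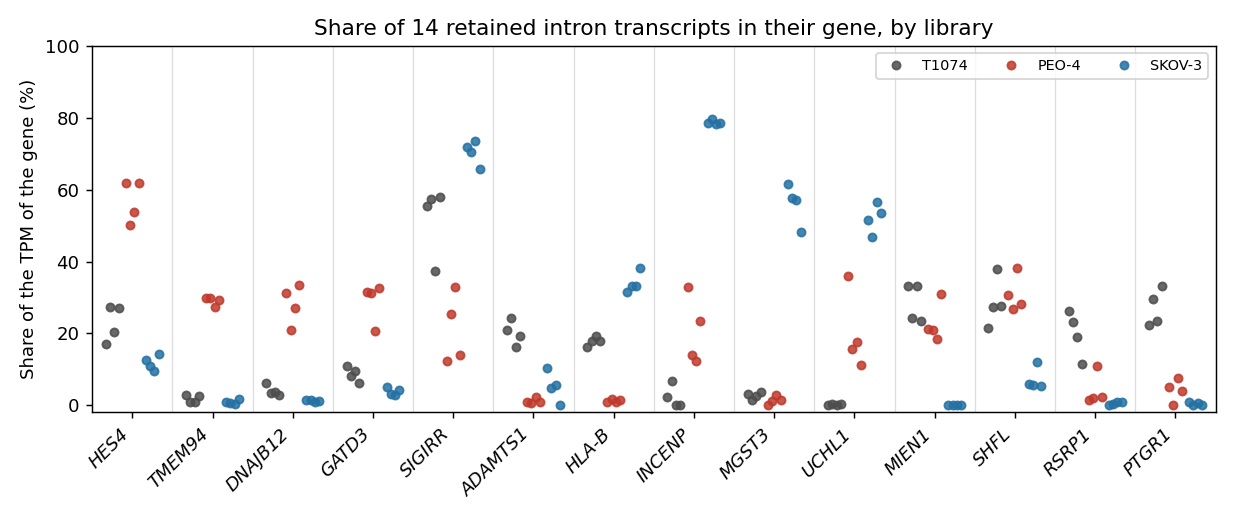
Share of gene TPM (%, y axis) of 14 of the named retained intron transcripts (x axis, by gene) in each of the 12 libraries, a point per library coloured by line. PEO-4 libraries are highest for TMEM94, HES4 and DNAJB12, and SKOV-3 libraries lie near 0 for MIEN1 (0.0172% to 0.0443%) and highest for INCENP (78.4% to 79.6%).

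Few members were the main product of their gene. Of the 19532, 12 had a mean share of 50% or more, 328 of 20% to 50%, 1772 of 5% to 20% and 7717 of 1% to 5%, and the median of those tested was 2.39%. Summed by gene, 707 of 5001 genes reached a mean of 20% and 75 reached 50%. The highest member, of A1BG, a plasma glycoprotein, averaged 95.8% in T1074, 99.1% in PEO-4, with 99.5% in SKOV-3, with 17 bases outside coding transcripts. Of the 10 highest members, 7 held no whole intron. The other 3 kept a short intron at about the same level in every line: METTL2A, a tRNA methyltransferase (206 bases; 63.5%, 68.0% and 69.2%), NT5C3B, a nucleotidase (224 bases; 60.6%, 57.8% and 63.2%), and TBL3, a ribosome assembly factor (89 bases; 53.8%, 55.6% and 57.2%). None of these 3 passed the limma test in any comparison, and METTL2A has a near-identical paralog. Weighting by length changed some levels: RAB21, a small GTPase of endosomes, averaged 79.5%, 74.6% and 81.3% of gene TPM but 13.6%, 11.4% and 13.7% of gene counts, and the ribosomal protein gene RPS28 76.3% to 76.8% of TPM but 27.8% to 28.9% of counts. RPL14 averaged 86.2% to 89.7% of TPM, and both ribosomal protein genes have processed pseudogenes that can share reads.

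Genes known for detained introns were examined as a list of 16, of which 13 could be tested. Shares of the genes in this and the following lists are summed over all their members, with or without a whole intron. They do not give the part of the RNA that keeps an intron. In PEO-4 7 were higher and 0 lower than in T1074 (also 7 on the arcsine scale; 6 without PEO-4 replicate 3), beside 37.3% of all genes higher, and 9 were higher and 0 lower than in SKOV-3, beside 52.9%. SKOV-3 had 0 higher and 5 lower than T1074, beside 20.8% lower. The median difference was 0.59, 0.80 and -0.40 in these comparisons, against 0.52, 0.76 and -0.21 over all genes tested. CCNL1, a cyclin that binds splicing factors, was nearly all retained in every line, at 83.1% to 91.5% in T1074, 89.5% to 90.3% in PEO-4, with 86.5% to 88.8% in SKOV-3, and it did not pass in any comparison. TRA2B, a splicing activator, was at 35.9%, 33.1%, 40.1% and 43.3% in T1074, 59.0%, 48.7%, 46.6% and 57.4% in PEO-4, with 34.2%, 31.8%, 32.1% and 28.7% in SKOV-3, with PEO-4 above all others (PEO-4 against T1074 0.87, SE 0.19, limma adjusted p = 0.0031). CLK1, a kinase of splicing factors, was at 36.4% to 38.4% in PEO-4, 18.3% to 29.6% in T1074, with 17.8% to 25.9% in SKOV-3. RBM5, an RNA-binding regulator of splicing, stood apart in SKOV-3, at 16.9% to 17.7% against 30.7% to 34.8% in T1074 and 29.4% to 39.6% in PEO-4.

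SR proteins promote splicing from exonic enhancers. Of 9 tested genes of 12, 4 were higher and 0 lower in PEO-4 than in T1074 (3 on the arcsine scale), 8 higher and 0 lower than in SKOV-3, and 4 lower and 0 higher in SKOV-3 than in T1074, beside 37.3%, 52.9% and 20.8% of all genes tested. SRSF5 was at 13.6%, 16.7%, 11.5% and 15.5% in T1074, 24%, 24.8%, 29.2% and 21.9% in PEO-4, with 12.5%, 16.9%, 15.3% and 15.8% in SKOV-3, so only PEO-4 stood apart (1.00, SE 0.20, limma adjusted p = 0.0018). SRSF11 was low in SKOV-3, at 8.49% to 14.2%, against 21.1% to 26.5% in T1074 and 23.8% to 34.7% in PEO-4. SRSF4 was at 11.5% to 24.8% in PEO-4 and 7.68% to 11.4% in T1074, which passed on the log2 ratio and not on the arcsine scale (adjusted p = 0.0638).

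The hnRNP proteins often oppose SR proteins at exons. Of 17 tested genes of 26, 11 were higher and 0 lower in PEO-4 than in T1074 (10 on the arcsine scale), 10 higher and 0 lower than in SKOV-3, and 3 higher and 3 lower in SKOV-3 than in T1074, beside 37.3% and 52.9% of all genes tested that were higher and 6.6% and 20.8% that were higher and lower in SKOV-3. Leaving out PEO-4 replicate 3 gave 10 higher than in T1074 and 9 than in SKOV-3. The median difference was 0.89 from T1074 and 0.66 from SKOV-3, where all genes had 0.52 and 0.76. HNRNPH1, which binds runs of G, was at 43.1%, 38.8%, 35.5% and 43.0% in T1074, 54.9%, 58.2%, 63.4% and 52.4% in PEO-4, with 21.6%, 20.9%, 20.9% and 23.9% in SKOV-3. The 3 lines did not overlap, and all 3 differences passed (PEO-4 against SKOV-3 2.07, SE 0.18, limma adjusted p = 1.3e-06). HNRNPA2B1 was higher in both tumour lines, at 37.8% to 50.3% in PEO-4, with 35.9% to 51.5% in SKOV-3 against 18.2% to 25.5% in T1074, and HNRNPC likewise, at 22.2% to 24.3% and 16.6% to 20.4% against 11.2% to 13.9%; both genes have pseudogene copies that can share reads. PTBP1, a repressor of exons, was higher in PEO-4 alone, at 16.8% to 22.9%, against 10.8% to 14.3% in T1074, with 9.96% to 13.3% in SKOV-3.

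Counts for subunits of the snRNPs are read beside those of all genes tested, of which 37.3% were higher in PEO-4 than in T1074, 52.9% higher than in SKOV-3, and 6.6% higher and 20.8% lower in SKOV-3 than in T1074. Of 7 tested U1 genes, 2 were higher and 0 lower in PEO-4 than in T1074, and 4 higher and 1 lower than in SKOV-3 (3 and 0, then 3 and 1, without PEO-4 replicate 3). In SKOV-3 against T1074, 2 U1 genes were higher and 1 lower. SNRNP70, the U1 protein that binds its stem loop, was at 24%, 27.3%, 39.9% and 39.1% in T1074, 54.3%, 45.6%, 47.5% and 56.1% in PEO-4, with 38.7%, 36.6%, 30.4% and 42.7% in SKOV-3 (PEO-4 against T1074 1.11, SE 0.25, limma adjusted p = 0.0035). The U1 gene lower in PEO-4 than in SKOV-3 was LUC7L3, a U1-associated protein, at 7.89%, 10.5%, 9.35% and 5.32% in T1074, 9.33%, 27.0%, 3.8% and 36.0% in PEO-4, with 48.6%, 53.2%, 40.9% and 61.8% in SKOV-3, where SKOV-3 stood above all others (SKOV-3 against T1074 3.05, SE 0.48, adjusted p = 0.00048). Of 13 tested U2 and U2AF genes, 7 were higher and 0 lower in PEO-4 than in either other line (7 and 1 against T1074 without PEO-4 replicate 3). In SKOV-3 against T1074, 3 were higher and 1 lower, with a median difference of 0.27 against -0.21 over all genes. SF1, which binds the branch point, was at 20.4%, 15.9%, 13.0% and 24% in T1074, 40%, 39.5%, 38.6% and 39.4% in PEO-4, with 9.88%, 9.90%, 9.91% and 12.6% in SKOV-3, with no overlap between lines. U2AF1, which binds the AG of the acceptor, was at 30.1% to 60.6% in PEO-4, 13.6% to 24.1% in T1074, with 11.3% to 23.1% in SKOV-3, but a second annotated copy shares its reads. SF3B3 was high in every line, at 69.2% to 77.3%, and passed in none. Of 7 tested tri-snRNP genes, 3 were higher in PEO-4 than in T1074 and 4 than in SKOV-3, with 0 lower, and of 4 tested minor spliceosome genes 0 and 3; in SKOV-3 against T1074 each of these lists had 0 higher and 1 lower. CENATAC of the minor spliceosome was at 70.7% to 78.1% in PEO-4, with 29.0% to 50% in SKOV-3, and T1074 ranged from 49.8% to 81.3%.

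Genes of mRNA export and of RNA decay gave mixed counts, to be read beside the same shares of all genes tested (37.3%, 52.9%, 6.6% and 20.8%). Of 9 tested export genes, 5 were higher in PEO-4 than in T1074 (4 on the arcsine scale) and 7 than in SKOV-3, with 0 lower, and 1 was higher and 4 lower in SKOV-3 than in T1074. The first counts were 4 and 5 without PEO-4 replicate 3. DDX39B, the helicase that recruits the export adaptor and aids spliceosome assembly, was at 14.1%, 10.8%, 16.5% and 16.7% in T1074, 24.6%, 34.4%, 41.0% and 25.5% in PEO-4, with 3.06%, 3.48%, 4.95% and 4.92% in SKOV-3, without overlap (PEO-4 against SKOV-3 3.34, SE 0.28, limma adjusted p = 1.1e-06), and 1 of its 5 members overlaps a small RNA gene. THOC1, of the THO complex, was at 11.5%, 7.52%, 9.41% and 23.7% in T1074 and higher in both tumour lines, at 27.4% to 47.9% in PEO-4, with 25.7% to 31.0% in SKOV-3. Of 11 tested genes of the nuclear exosome and its cofactors, 5 were higher in PEO-4 than in T1074 (2 on the arcsine scale, 4 without PEO-4 replicate 3) and 5 than in SKOV-3, and 1 was higher and 2 lower in SKOV-3 than in T1074. EXOSC2, an RNA-binding cap subunit, was at 13.8% to 20.4% in PEO-4 and 4.29% to 8.81% in T1074 and passed on both scales. Of 9 tested nonsense-mediated decay factors, 2 were higher in PEO-4 than in T1074 (1 on the arcsine scale) and 6 than in SKOV-3, with 0 lower, and 1 and 5 without PEO-4 replicate 3. In SKOV-3 against T1074, 1 was higher and 2 lower. SMG1, the kinase of UPF1, was at 15.3% to 17.0% in PEO-4, 8.23% to 10.7% in T1074, with 7.48% to 11% in SKOV-3.

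The cytoplasmic tRNA synthetases, which load amino acids on tRNAs and play no part in splicing, were taken as a list outside RNA processing. Of 17 tested genes of 20, 11 were higher and 0 lower in PEO-4 than in T1074 (9 on the arcsine scale), and 11 higher and 0 lower than in SKOV-3, beside 37.3% and 52.9% of all genes tested higher. Without PEO-4 replicate 3 the counts were 9 and 11, and in SKOV-3 against T1074 2 were higher and 3 lower. The median differences of the list were 1.05 and 1.28, beside 0.52 and 0.76 over all genes tested. HARS1, for histidine, was at 5.90%, 4.81%, 7.16% and 6.21% in T1074, 19.6%, 16.2%, 17.6% and 19.7% in PEO-4, with 7.99%, 9.62%, 7.72% and 7.21% in SKOV-3 (PEO-4 against T1074 1.75, SE 0.20, limma adjusted p = 3.6e-05). RARS1, for arginine, was at 31.0% to 44.8% in PEO-4, 16% to 22.1% in T1074, with 12.2% to 21.9% in SKOV-3, and MARS1, for methionine, at 20.4% to 25.7%, 9.68% to 13.7% and 8.83% to 15.8%. QARS1 did not pass in any comparison, with T1074 at 27.4% to 49.3%.

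**Figure D5:**
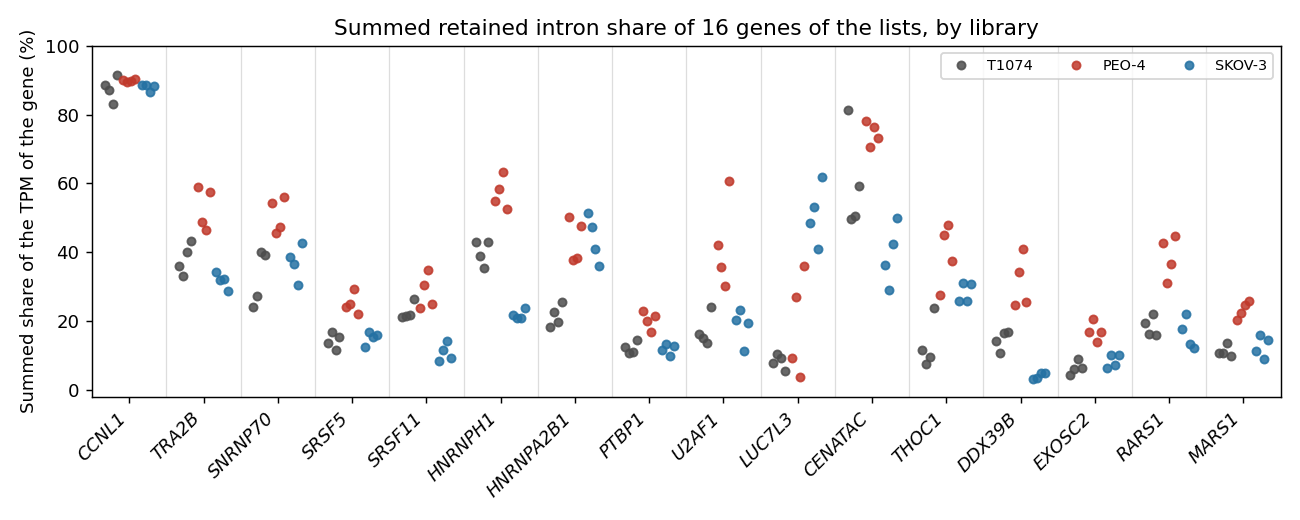
Summed retained intron share (%, y axis) of 16 genes of the lists (x axis) in each of the 12 libraries, a point per library coloured by line. HNRNPH1 and DDX39B separate the 3 lines with PEO-4 highest, LUC7L3 is highest in SKOV-3 (40.9% to 61.8%), and CCNL1 is near 90% in all.

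Expression of the splicing and decay genes was more often lower than higher in both tumour lines against T1074, with the wider gap in SKOV-3. The set joins all lists above except the tRNA synthetases. It thus includes mRNA export genes and the genes known for detained introns, such as MAT2A, which were not chosen for a part in splicing or decay. By edgeR on gene sums of expected counts, 40 of 148 genes were higher and 61 lower in PEO-4 than in T1074, beside 36.3% and 37.8% of 19898 genes. In SKOV-3 against T1074, 26 were higher and 71 lower (all genes 33.2% and 34.5%), and in PEO-4 against SKOV-3, 61 were higher and 44 lower (all genes 38.5% and 36.7%). PUF60, a partner of U2AF, was at 195 ± 15.9 CPM (counts scaled by library size; SD, n = 4) in PEO-4, 50.2 ± 7.12 (SD, n = 4) in T1074 and 66.5 ± 2.63 (SD, n = 4) in SKOV-3, with a log2 difference of 1.96 from T1074 (SE 0.11, edgeR adjusted p = 8.56e-10). The exosome subunit EXOSC9 was at 10.0 ± 1.74 CPM (SD, n = 4) in PEO-4 and 47.8 ± 2.07 (SD, n = 4) in T1074 (-2.25, SE 0.12, edgeR adjusted p = 5.89e-10), and the decay endonuclease SMG6 at 12.7 ± 0.291 and 52.6 ± 7.35 CPM (SD, n = 4; -2.05, SE 0.11). EXOSC4 moved the other way, at 61.4 ± 4.41 against 20.4 ± 9.29 CPM (SD, n = 4; 1.59, SE 0.23). In SKOV-3 against T1074 the widest changes were SRSF12 (2.79, SE 0.21) and HNRNPUL2 (1.45, SE 0.19) upward and THOC1 (-2.11, SE 0.16) and MAT2A (-2.04, SE 0.29) downward, and between PEO-4 and SKOV-3 they were CCNL1 (1.77, SE 0.15), DDX39A (1.65, SE 0.16), THOC7 (-1.89, SE 0.13) and EXOSC8 (-1.64, SE 0.14). HNRNPH1 and DDX39B, whose shares separated all 3 lines, did not pass the expression test between PEO-4 and SKOV-3 (0.08, SE 0.12, adjusted p = 0.544, and 0.12, SE 0.12, adjusted p = 0.374), whereas SF1, also separated in share, did (0.80, SE 0.17, edgeR adjusted p = 0.000459), as did HNRNPM (0.40, SE 0.16, edgeR adjusted p = 0.034). Of the 148 genes, 41 were higher and 51 lower in PEO-4 than in T1074 without PEO-4 replicate 3, and 60 and 34 than in SKOV-3.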

How the data were processed

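Ribosomal RNA-depleted, strand-specific total RNA libraries of the lines T1074, SKOV-3 and PEO-4 were sequenced, 4 per line. According to the submitters' notes, the authors used RSEM 1.3.1 with STAR 2.7.3a to quantify transcripts of GENCODE 39 on hg38, after base calling (bcl2fastq 2.20.0.422) and trimming (Trimmomatic 0.39). The deposited files give, per transcript, expected counts, TPM, the percent of its gene (IsoPct) and effective length (bases) that the authors obtained. RSEM divides reads shared by transcripts by a model, so the share of a short or nearly redundant transcript is an estimate.

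Types and positions were taken from GENCODE 44 on GRCh38: 237373 of 244939 transcripts matched by identifier and version, 242542 without version, and of the 19532 members in tested genes 19323 had the same length in both. Shares were computed from the deposited TPM and differed from the deposited percent by a median of 0.009 points. Transcripts with a mean TPM of at least 0.1 were tested with limma 3.58.1 (trend and robust) on log2((TPM + 0.1) / (rest of gene + 0.1)) over all 12 libraries, with Benjamini-Hochberg adjustment over 43246 transcripts (4107 genes for summed shares) at 0.05. Log2 differences are on that scale. The expression of genes was tested with edgeR 4.0.16 (quasi-likelihood, TMM, filterByExpr) on rounded gene sums of expected counts. Library values were compared by exact two-sided permutation tests. The code was tested on simulated data. Alternatives covered pseudocounts, filters, scales, whole-intron members, counting unit, DESeq2 1.42.0 and leaving out each library.

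Members and gene lists were chosen with earlier results of these data known. Transcripts were named for differing by the 5 largest differences in mean share per direction and comparison, past the test, with no overlap, a mean gene TPM of at least 5 and 50 expected counts in the higher line; 10 were named for a high share (gene TPM of at least 5), up to 4 genes per list for theirs, and 2 splicing or decay genes per direction for expression. Other genes of the lists (CLK1, RBM5, SF1, HNRNPM, HARS1, SMG1) were chosen after their values were seen. Tools were Python 3.11.15, pandas 2.3.3, scipy 1.17.1, pysam 0.24.0 and R 4.3.3. The ends of other introns of named transcripts are not reported here.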

Additional observations from a re-analysis of the deposited data

Results flagged for a closer look

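In 228 groups of 4 libraries, 13 (5.7%) had a library farther from the others than Dixon's 95% critical value allows, and chance flags about 1 in 20 groups. Of the 13, 6 fell on PEO-4 replicate 3. Its median gene share of retained intron transcripts was 6.98%, where the other PEO-4 libraries lay at 6.17% to 6.31%. The same library stood apart in KLF4 (33.1% against 9.18% to 13.1%), RSRP1 (11.1% against 1.42% to 2.32%), GATD3 (20.7% against 31.1% to 32.7%), SF3B3 (74.1% against 69.2% to 69.5%) and SNRNP25 (92.1% against 100%), and so it was not higher throughout.

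Among T1074 libraries, replicate 3 was low in SIGIRR (37.3% against 55.4% to 58.0%) and replicate 4 high in SRSF11 (26.5% against 21.1% to 21.7%). Among SKOV-3 libraries, replicate 2 stood apart in INCENP (79.6% against 78.4% to 78.5%), HNRNPC (20.4% against 16.6% to 17.2%) and SMG9 (46.0% against 59.4% to 60.5%), replicate 3 in SHFL (11.9% against 5.42% to 5.79%) and replicate 1 in QARS1 (35.9% against 27.7% to 28.2%).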

How the results depend on the processing

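Deposited TPM have 2 decimals, and low transcripts carry few reads, which limits small shares most. Counts are given here for retained intron transcripts, then for genes by summed share. Shares of all transcripts called were counted only for the main, arcsine and share offset scales. The counts under other settings thus show dependence on processing and not a result about the members. Leaving out each library in turn gave 410 to 650 transcripts and 180 to 280 genes higher in SKOV-3 than in T1074. The other comparisons of lines stayed within 1.5 times when a library was left out. Among genes with a TPM sum of at least 10 in all libraries, the SKOV-3 minus T1074 difference in percent of TPM reversed to 0.0505.

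Higher in PEO-4 than in T1074 (main 2707 transcripts, 1531 genes), the counts were 1182 and 997 at a pseudocount of 0.01, 4761 and 2315 at 0.5, 186 and 417 at a mean TPM of at least 1, 657 and 269 at a gene TPM of at least 10, 1115 and 890 for members that hold a whole intron, 1497 and 913 at an adjusted p of 0.01, and 1393 and 987 with the share offset. For transcripts they were also 8306 without a filter, 1440 on the arcsine scale, 1468 from expected counts and 315 by edgeR's diffSpliceDGE. Lower in PEO-4 than in T1074 (254 and 144), they were 62 and 67 at TPM of at least 1, 62 and 27 at gene TPM of at least 10, 106 and 83 with a whole intron and 1.1e+02 and 66 at 0.01, and for transcripts 501 at a pseudocount of 0.5, 609 without a filter and 86 by diffSpliceDGE.

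Higher in SKOV-3 than in T1074 (626 and 271), they were 257 and 161 at a pseudocount of 0.01, 2300 and 764 at 0.5, 134 and 117 at TPM of at least 1, 96 and 46 at gene TPM of at least 10, 247 and 144 on the arcsine scale, 199 and 142 with a whole intron, 279 and 115 at 0.01 and 249 and 156 with the share offset, and for transcripts 2686 without a filter, 295 from expected counts and 95 by diffSpliceDGE. Lower in SKOV-3 than in T1074 (1248 and 855), they were 151 and 353 at TPM of at least 1, 445 and 233 at gene TPM of at least 10 and 565 and 455 at 0.01, and for transcripts 2017 without a filter, 610 with a whole intron and 375 by diffSpliceDGE. Without a filter the leaning of transcripts in SKOV-3 against T1074 was thus turned, with 2686 higher and 2017 lower. At TPM of at least 1 the transcripts were near level, with 134 higher and 151 lower.

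Higher in PEO-4 than in SKOV-3 (3400 and 2172), they were 248 and 613 at TPM of at least 1, 1107 and 440 at gene TPM of at least 10 and 1520 and 1327 with a whole intron, and for transcripts 7336 without a filter, 2219 at 0.01 and 1047 by diffSpliceDGE. Lower in PEO-4 than in SKOV-3 (250 and 109), they were 734 and 196 at a pseudocount of 0.5, 91 and 62 at TPM of at least 1, 61 and 25 at gene TPM of at least 10, 79 and 47 with a whole intron and 118 and 67 at 0.01, and for transcripts 733 without a filter and 76 by diffSpliceDGE. Higher TPM limits and whole introns leave fewer transcripts to test, and 0.01 is a stricter limit on the same ones; for pseudocounts, scales and diffSpliceDGE the cause was not tested. Splicing and decay genes higher in SKOV-3 than in T1074 numbered 26, and 13 when scaled by library size only.

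Libraries with the same replicate number did not deviate together (correlations of -0.0378 to 0.0859 in 12 pairs, against -0.0813 to 0.0456 in 36 pairs of different number). With a replicate block, 2436 transcripts and 1505 genes were higher and 219 and 136 lower in PEO-4 than in T1074, 524 and 245 higher and 799 genes lower in SKOV-3 than in T1074, and 3167 and 2160 higher and 235 and 104 lower in PEO-4 than in SKOV-3. The block changed no count by over 1.5 times. A sign-flip test within replicate numbers cannot pass the threshold with 4 pairs.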

Other observations

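Classes of member not described above had the following values. The 56 tested members that keep an intron with the ATATCC or GTATCC start included 19 higher and 0 lower in PEO-4 than in T1074 (30.8% and 2.89% of all tested members), and their median share difference was 0.589 points. The 192 tested members with a small RNA gene on an exon included 50 higher and 9 lower, with a median difference of 0.133 points. By position of the retained intron, 301 members with the first intron of a gene included 101 higher and 18 lower in PEO-4 than in SKOV-3, 2442 with an internal intron 1097 and 45, and 199 with the last intron 90 and 5. These are 33.6%, 44.9% and 45.2% higher, where 38.7% of all tested members and 20.2% of all transcripts tested were higher. No test of these classes was made.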
